A study of Ovis aries with 16 samples.

Results

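The comparison described here is that of fetal sheep hypothalamus after a brief brachiocephalic artery occlusion (BCO) against sham occlusion, in fetuses that had all been given estradiol. Its members were chosen by sample title alone: the 4 arrays of the estradiol+BCO group and the 4 arrays of the estradiol group, 8 of the 16 arrays in the series. Estradiol was given at 250 ug per day for 5 days to every fetus in both groups. By the labels, the treatment of the 2 groups differs only in the occlusion. The occlusion lasted 10 min, was followed by 50 min of recovery, and the hypothalamus was taken 1 h after its start, in catheterized fetuses of 124 to 128 days of gestation (term is 147 days). Sham-treated fetuses without estradiol (control, 4 arrays) and occluded fetuses without estradiol (BCO, 4 arrays) served as the comparison for the interaction of occlusion and estradiol. Each array holds the hypothalamus of 1 fetus, as a whole-tissue extract. In such an extract fewer cells of a type and less RNA per cell cannot be told apart.

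The brachiocephalic artery carries blood to the head of the fetal sheep, and its occlusion lowers the pressure and the oxygen supply of the brain. The fetal hypothalamus answers such a challenge through corticotropin-releasing hormone and vasopressin, which drive the release of adrenocorticotropin, made from the POMC precursor in the pituitary. Estradiol of placental origin acts on the same axis, through estrogen receptors, and late in gestation it is known to raise the fetal stress response.

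All values are signals on a log2 scale with the 75th percentile of the same array set to 0, and differences are estradiol+BCO minus estradiol, given ± the standard error of the linear model. Of 15008 probes 12667 were tested, and 1274 of these carry a gene name, for 815 genes. The arrays lie on 2 slides, with replicates 1 and 2 of every group on slide 1 and replicates 3 and 4 on slide 2. The slides differed at 839 probes (limma, adjusted p under 0.05), so slide was a term of the model. Their number limits the precision of each value, and the median standard error of a difference was 0.157. Labelled as hypothalamus, the tissue gave signal for oxytocin, AGRP, GHRH and POMC transcripts, which are made in hypothalamic nuclei, in 8 of 8 arrays well above background except GHRH, which was so in 3 of the 4 estradiol+BCO arrays. None of the listed neuron and oligodendrocyte markers has a named probe here, so the label could not be checked against those.

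One array stood apart from the others. In estradiol+BCO replicate 1, 70 of 12634 probes with a value on all 8 arrays lay more than 2 log2 units above each of the other 7 arrays, whereas each of those had 0 to 6 such probes. The named genes among the 70 include ISG15, MX1, MX2, CXCL10, PSMB8 and RTP4, which belong to the response to interferon. Estradiol+BCO replicate 3 had 33 probes more than 2 log2 units below all the others. The counts of gene lists whose majority or number at p under 0.05 shifted without replicate 1 are given below with and without it, where the text prints them.

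One probe of 12667 fell in estradiol+BCO (0.00789%; limma with slide as a term, Benjamini-Hochberg adjusted p under 0.05). It is A_70_P055401, designed on an expressed sequence tag of a sheep fracture callus library that has no gene name here. Its signals were -2.17, -1.97, -2.31 and -2.18 in estradiol+BCO replicates 1 to 4. The estradiol arrays read -1.24, -1.06, -1.07 and -1.41. Every occluded fetus therefore lay below every sham fetus, and the difference was -0.96 ± 0.11 (SE, n = 4 and 4; adjusted p = 0.0120, limma), a signal 1.95-fold lower. The difference was -0.92 on slide 1 and -1.01 on slide 2. The call was lost when the replicate number was the block (0 probes, adjusted p = 0.0674), when only the 8 arrays entered the fit (0 probes), and without estradiol+BCO replicate 1 or 4 or estradiol replicate 2 or 3 (0 probes each).

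The same probe and 2 further unnamed probes differed in the interaction of occlusion and estradiol, that is, in the difference with estradiol minus the difference without it (3 of 12667 probes, 0.0237%; adjusted p = 0.0159 for each, limma). The start of each probe is shown because no gene name identifies these transcripts. The first 30 of 60 bases are printed 5′ to 3′ as the deposited files list them, with no genome position, since the files leave the probes unmapped.
A_70_P055401: tataacattcccccattatgtaattcccat
A_70_P036801: attgacgagatgccggaggctgccgtgaaa
A_70_P005946: atttgaaggagagaaggatttcatcaaatg
All 3 were lower after occlusion in fetuses given estradiol and higher after it in fetuses that were not. A_70_P055401 was higher by 0.33 in BCO than in control and lower by 0.96 under estradiol, an interaction of -1.30 ± 0.16. A_70_P036801 read -4.04, -4.11, -4.31 and -4.26 in estradiol+BCO against -3.53, -3.46, -3.48 and -3.53 in estradiol. It was lower in every occluded fetus (-0.68 ± 0.10, adjusted p = 0.0647, limma) and its interaction was -1.08 ± 0.14. A_70_P005946 overlapped between the groups and differed by -0.49 ± 0.10, with an interaction of -1.03 ± 0.14.

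**Figure D1:**
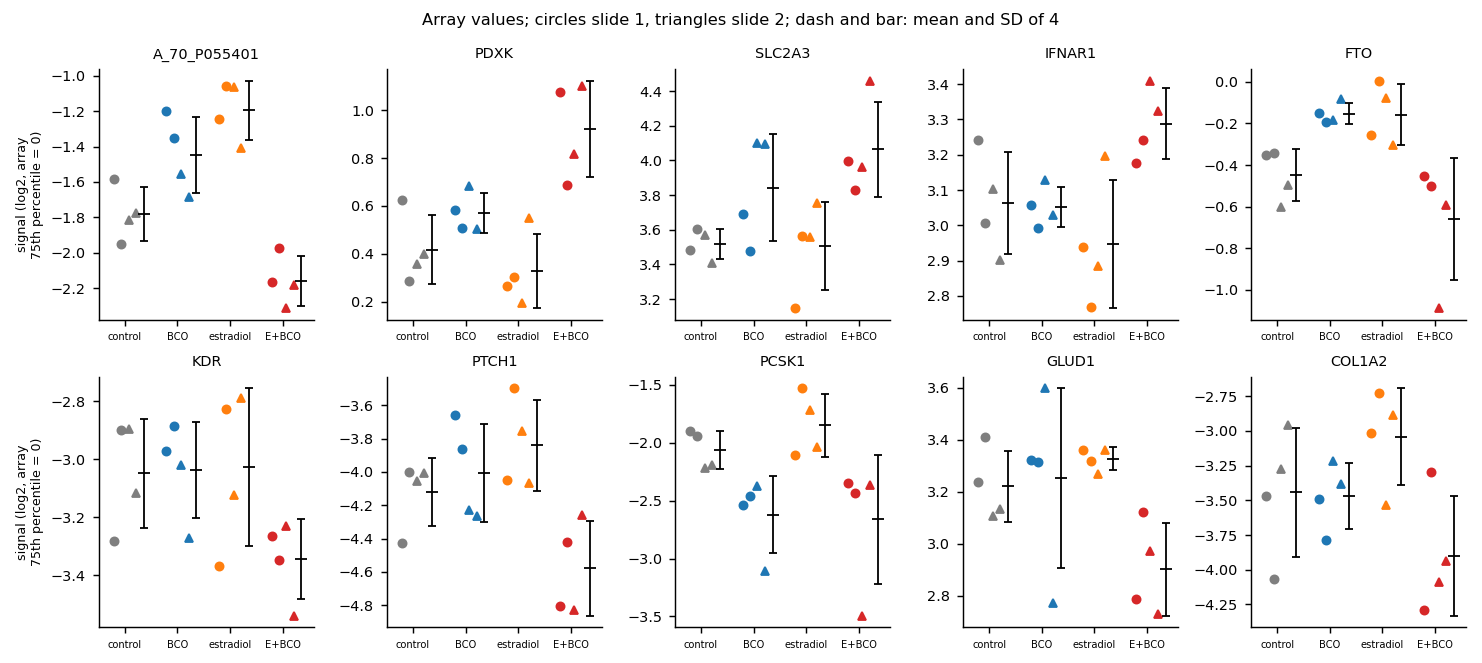
Signal (log2, 75th percentile of the array at 0) on each array for the probe that fell and 9 named genes, in control, BCO, estradiol and estradiol+BCO (written E+BCO); circles are slide 1, triangles slide 2, and the dash with its bar is the mean ± SD of 4 arrays. Each gene is drawn at its brightest probe, which for KDR is one of the probes whose groups overlapped. The 4 estradiol+BCO arrays of A_70_P055401 lie between -2.31 and -1.97, below all 4 estradiol arrays.

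No named gene passed the adjusted threshold. At an unadjusted p under 0.05, 1143 probes differed (9.02%), of which 494 were higher (3.9%) and 649 lower (5.12%) in estradiol+BCO. Higher probes made up 43.2% of them, against 52.1% when each array was centred on its median and 31.8% under normexp, another background correction. The groups did not overlap at 650 probes (5.13%), 278 of them higher (2.19%) and 372 lower (2.94%), and the mean was higher at 6122 (48.3%). Occlusion without estradiol gave 0 probes at the adjusted threshold (0%, limma) and 1075 at the unadjusted one (8.49%), 552 higher (4.36%) and 523 lower (4.13%). The genes below are those with the lowest p in each direction and the members of pathway and cell type lists, and none of them is a call.

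Pyridoxal kinase and the neuronal glucose transporter were both higher without overlap. PDXK, which activates vitamin B6 and so serves the enzymes that make monoamines and GABA, read 1.08, 0.69, 0.82 and 1.10 in estradiol+BCO. The estradiol arrays read 0.27, 0.30, 0.19 and 0.55. Each occluded fetus was above each sham fetus, by 0.59 ± 0.12 (adjusted p = 0.133, limma), and the difference was 0.60 on slide 1 and 0.59 on slide 2. SLC2A3, the main glucose transporter of neurons, read 4.00, 3.83, 3.96 and 4.46 after occlusion. Sham values were 3.15, 3.56, 3.56 and 3.76. These groups did not overlap either, and the difference was 0.56 ± 0.14 (adjusted p = 0.240, limma). Its other probe, which shares no sequence with the first, differed by 0.46.

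SLC2A1, the glucose transporter of the blood-brain barrier, was higher by 0.31 ± 0.12 (adjusted p = 0.497, limma) with overlapping groups. SLC2A4, the insulin-responsive transporter, went the other way: -5.31, -4.17, -5.09 and -4.38 against -4.13, -3.84, -3.43 and -3.78, with no overlap (-0.94 ± 0.31, adjusted p = 0.363, limma). Its second probe, which shares 59 bases with the first, differed by -0.59 ± 0.50 and its groups overlapped. Over the 16 measured genes of hypoxia, glucose transport and glycolysis 7 were higher and 9 lower, with a median difference of -0.01 against -0.01 over all probes tested. Without estradiol+BCO replicate 1 the majority turned, to 10 higher and 6 lower (median 0.03). VEGFA, a target of the hypoxia-inducible factors, differed by 0.00 and HIF1A itself by -0.01. Without estradiol, the difference of SLC2A3 was 0.32 and that of PDXK 0.15, and neither interaction passed the adjusted threshold (adjusted p = 0.817 and 0.463, limma).

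Several vascular genes differed at one or more probes. KDR, the main receptor for vascular endothelial growth factor on endothelial cells, has 4 probes. A pair of them comes from one partial coding sequence and overlaps by 40 bases, set in capitals below, so their agreement is not independent.
KDR A_70_P026597: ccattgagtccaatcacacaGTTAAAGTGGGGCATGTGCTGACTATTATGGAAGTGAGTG
KDR A_70_P026596: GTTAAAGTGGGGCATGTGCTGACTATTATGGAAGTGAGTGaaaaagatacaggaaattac
The first read -4.96, -5.06, -4.92 and -4.58 in estradiol+BCO. In estradiol it read -4.56, -4.19, -3.85 and -3.86. The groups overlapped neither here (-0.76 ± 0.19, adjusted p = 0.225, limma) nor at the second probe (-0.67 ± 0.18). The remaining KDR probes, from another record, differed by -0.32 and -0.26, and their groups overlapped.

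TEK, the angiopoietin receptor, read -7.04, -7.38, -7.07 and -7.47 against -6.40, -7.00, -6.28 and -6.75. All 4 occluded values were lower (-0.63 ± 0.23, adjusted p = 0.421, limma), and only 1 of these 4 was well above background. AGGF1, an angiogenic factor, was lower with no overlap at both of its probes (-0.29 ± 0.09 and -0.38 ± 0.09). ABCG2, an efflux transporter of brain capillaries, was lower without overlap (-0.38 ± 0.14), whereas NOS3, the endothelial nitric oxide synthase, was higher (0.34 ± 0.14, adjusted p = 0.492, limma). SLCO2A1, a prostaglandin transporter, was higher by 0.49 ± 0.16. Of 28 measured angiogenesis genes 11 were higher and 17 lower with a median of -0.09, and 14 and 14 without estradiol+BCO replicate 1 (median -0.0019). With all arrays 3 were lower without overlap and 0 higher, where 2.94% and 2.19% of all probes were. The 8 endothelial and mural markers split 4 and 4 (median -0.04). Their summed linear signal was 3.97 to 4.74 in estradiol+BCO and 5.01 to 5.86 in estradiol, without overlap. ABCG2 made up 73.3% of the sum in estradiol, and without it the sums overlapped, at 1.19 to 1.61 and 1.21 to 1.76.

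Most measured genes of glutamate handling and of astrocytes had lower means after occlusion. Astrocytes clear glutamate from the synapse with the transporters SLC1A2 and SLC1A3. SLC1A3 read -0.34, 0.02, -0.37 and -0.81 after occlusion and 0.41, 0.24, 0.32 and 0.08 after sham. All 4 occluded fetuses were lower (-0.64 ± 0.22, adjusted p = 0.401, limma), and a second probe differed by -0.69. SLC1A2 overlapped between groups and differed by -0.65 ± 0.25 at its brightest probe and by -0.14 at a probe that shares no sequence with it. GLUD1, glutamate dehydrogenase, was lower without overlap at each of its 3 probes, by -0.43, -0.50 and -0.52. The probes at -0.43 and -0.50 share 59 bases, so their agreement is not independent. At the brightest the occluded values were 2.79, 3.12, 2.97 and 2.73. Sham fetuses read 3.36, 3.32, 3.27 and 3.36, so the lowest of them still lay above the highest occluded one.

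GRIA4, a subunit of AMPA-type glutamate receptors, has 2 probes that share the 29 bases in capitals.
GRIA4 A_70_P002757: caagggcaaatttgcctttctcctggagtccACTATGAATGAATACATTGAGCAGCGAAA
GRIA4 A_70_P002756: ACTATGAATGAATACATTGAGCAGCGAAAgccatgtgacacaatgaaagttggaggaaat
The first gave -2.08, -2.15, -2.26 and -2.11 in estradiol+BCO and -1.83, -1.94, -1.43 and -1.69 in estradiol. The groups were apart by a small margin (-0.43 ± 0.14, adjusted p = 0.358, limma), and the second probe differed by -0.39. Of 13 measured glutamate and GABA genes 11 were lower and 2 higher (median -0.22); 4 were lower at p under 0.05 (5.12% of all probes) and 3 without overlap (2.94% of all probes), and 0 were higher by either measure. Without estradiol+BCO replicate 1 the list had 9 lower and 4 higher (median -0.16), with 3 lower at p under 0.05. The median was -0.13 on slide 1 alone and -0.43 on slide 2 alone. All 7 astrocyte markers were lower (median -0.32), 3 of them at p under 0.05 (5.12% of all probes). SLC1A2 and SLC1A3 are members of both lists, so the counts of the lists are not independent. Without estradiol+BCO replicate 1 all 7 were still lower (median -0.23), but 1 at p under 0.05. GJA1, the gap junction protein of astrocytes, differed by -0.32 ± 0.13 and GFAP, their intermediate filament, by -0.34 ± 0.27. The summed astrocyte signal overlapped, at 104 to 151 in estradiol+BCO and 120 to 155 in estradiol. Without estradiol replicates 1 and 2 the astrocyte median was -0.17 and the glutamate median -0.43.

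**Figure D2:**
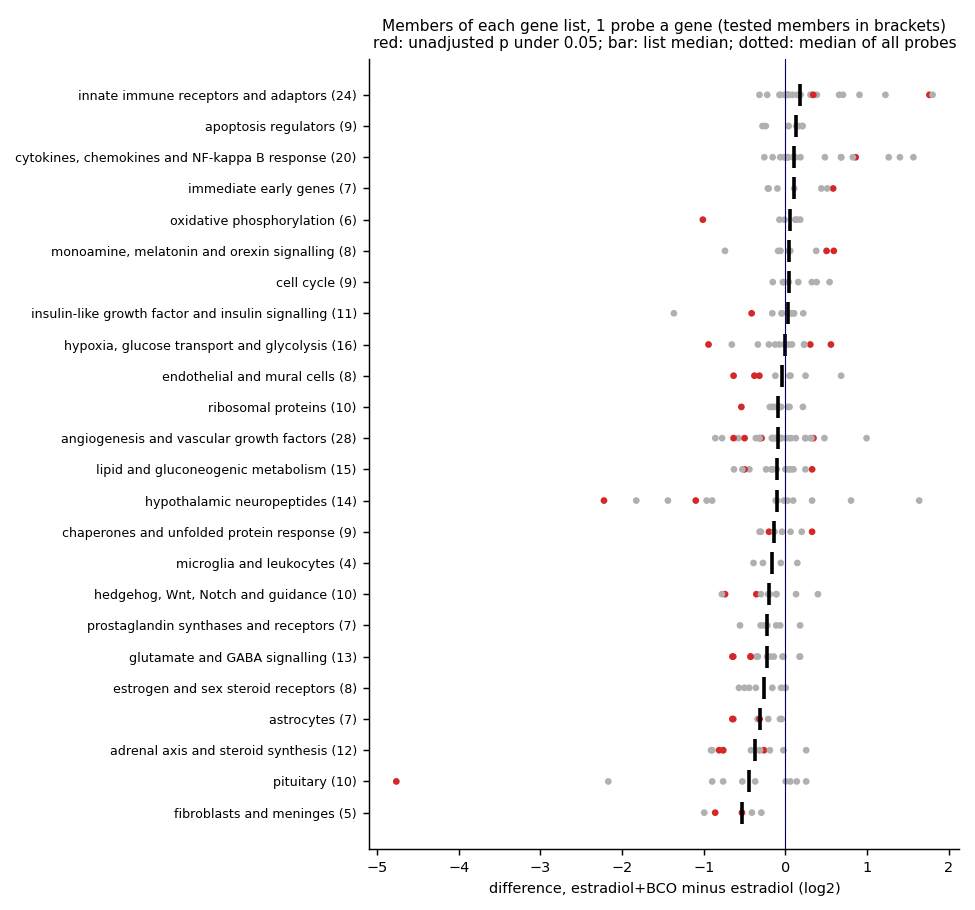
Difference between estradiol+BCO and estradiol (log2) for each measured member of 24 gene lists, 1 probe a gene; red points have an unadjusted p under 0.05, the bar is the median of the list and the dotted line the median of all probes. The medians run from -0.53 for fibroblast genes to 0.18 for innate immune genes.

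For 4 genes of the interferon response, 1 fetus carried most of the difference. ISG15, a ubiquitin-like protein induced by interferon, read 7.14 in estradiol+BCO replicate 1 and 1.96, -0.35 and 0.48 in replicates 2 to 4. Sham fetuses read 0.65, 0.18, 0.17 and 1.02. The signal of replicate 1 was 110-fold the median of the other 15 arrays of the series. MX1 and MX2, antiviral GTPases, read 5.57 and 4.46 there, which is 27.1-fold and 39.0-fold that median, and CXCL10, a chemokine, was 72.9-fold. In each of these 4 genes the other 15 arrays all lay below it, by 3.91 to 5.17 log2 units for the highest of them. These genes were singled out after their values were seen. Left without this array, the differences were 0.20 for ISG15, -0.26 for MX1, -0.08 for MX2 and 0.12 for CXCL10.

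**Figure D3:**
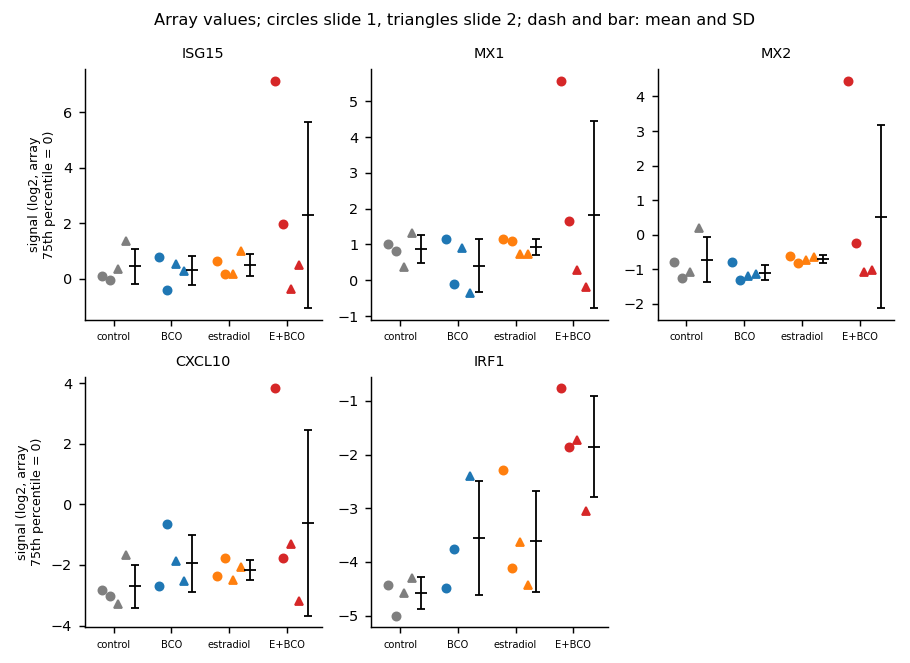
Signal (log2, 75th percentile of the array at 0) on each array for 5 interferon-related genes in control, BCO, estradiol and estradiol+BCO (written E+BCO); circles are slide 1, triangles slide 2, and the dash with its bar is the mean ± SD of the arrays with a value. A single circle, estradiol+BCO replicate 1, stands above all other arrays, at 7.14 for ISG15; 1 BCO array has no IRF1 value.

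The list of innate immune receptors and adaptors had 19 of 24 members higher and a median of 0.18. Without estradiol+BCO replicate 1 it had 11 higher and 13 lower, with a median of -0.05. IRF1, a transcription factor of the interferon response, was higher in a way that did not rest on that array alone. Occluded fetuses read -0.76, -1.86, -1.73 and -3.06. Sham fetuses read -2.29, -4.11, -3.63 and -4.44, overlapping only through the highest of these (1.76 ± 0.57, adjusted p = 0.365, limma; 1.39 without replicate 1). IFNAR1, a subunit of the type I interferon receptor, was higher by 0.34 ± 0.10, with 3.18, 3.24, 3.41 and 3.32 against 2.94, 2.77, 2.88 and 3.20, so a single sham value reached into the occluded range. CD40, a receptor of antigen-presenting cells, differed by 0.71 and 0.83 at its 2 probes, and by 0.29 and 0.20 under normexp. CD247, the zeta chain of the T cell receptor, was higher by 1.17 ± 0.39 with an overlapping pair of fetuses.

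TNF, an inflammatory cytokine, read -3.86, -4.83, -4.55 and -4.82 after occlusion and -4.91, -5.41, -5.23 and -5.94 after sham. The groups did not overlap (0.86 ± 0.30, adjusted p = 0.404, limma), and the size was 0.31 under normexp and 0.59 without replicate 1. In the cytokine and NF-kappa B list 15 of 20 members were higher (median 0.11). Under normexp 11 were higher and 9 lower (median 0.10). Without estradiol replicate 2 the list had 13 higher and 7 lower (median 0.22). Several of its members were high in the same fetuses of both groups. CXCL8, a neutrophil chemokine, read -5.25, -1.41, -0.69 and -2.40 in estradiol+BCO and -1.85, -4.67, -3.46 and -4.82 in estradiol. ICAM1, an adhesion molecule, read -3.88, -1.67, -1.28 and -3.12 against -1.78, -5.19, -3.95 and -4.64. In both, occluded replicates 2 and 3 and sham replicate 1 were the 3 highest, and the groups overlapped. NFKBIA, the NF-kappa B inhibitor, had the same 3 fetuses highest, at 2.34, 2.33 and 1.97. Without estradiol+BCO replicate 1 these differences were larger, 2.03 against 1.27 for CXCL8, 1.73 against 1.40 for ICAM1 and 0.98 against 0.68 for NFKBIA, and the list had the same 15 and 5 (median 0.12). Microglia and leukocyte markers were scarcely measured, with 4 of 23 tested and 3 of them lower. Complement C3 was lower by 0.52 in size (-0.52 ± 0.16, adjusted p = 0.358, limma), and IL13RA1, a receptor for interleukin 13, by -0.51 ± 0.15.

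Immediate early genes mark recent neuronal activity. FOS read 0.60, 0.83, 0.70 and 1.75 after occlusion and 0.49, -0.01, 1.03 and 0.03 after sham. The highest value was in an occluded fetus, the ranges overlapped, and the difference was 0.59 ± 0.27 (adjusted p = 0.540, limma). Its other 3 probes differed by 0.39, 0.52 and 0.53, and those at 0.39 and 0.52 share 59 bases. JUNB differed by 0.44 ± 0.41 and EGR1 by 0.11 ± 0.14, and the list had 4 of 7 members higher with a median of 0.11. When each gene was represented by the mean over its probes instead of the brightest, the median was 0.41. FOSB, NR4A1 and ARC have no probe under those names.

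Of 12 genes of the adrenal axis 11 had lower means, with a median difference of -0.37, and 3 were lower at p under 0.05 (5.12% of all probes). Without estradiol+BCO replicate 1 these were 10 and 2. PCSK1, the convertase that starts the cleavage of POMC and other prohormones, read -2.34, -2.44, -3.49 and -2.37 in estradiol+BCO. Its estradiol values were -2.11, -1.53, -1.72 and -2.04. All occluded fetuses were lower (-0.81 ± 0.22, adjusted p = 0.277, limma), replicate 3 the most, and the difference was -0.56 without that replicate. Its probe lies in a partial coding sequence: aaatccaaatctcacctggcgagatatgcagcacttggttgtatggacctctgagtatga. CPE, which trims the products of PCSK1, differed by -0.26 ± 0.11. POMC read 0.40, 1.74, 0.00 and -0.69 against 2.16, 2.10, 0.41 and 0.38, overlapping (-0.90 ± 0.46). STAR, which feeds cholesterol into steroid synthesis, differed by -0.76 ± 0.30, and by -0.45 under normexp. CRHBP, the binding protein of corticotropin-releasing hormone, differed by -0.32 ± 0.28. CRH and AVP themselves have no probe under those names, so they are not analysed here.

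NPY and AGRP, neuropeptides of the arcuate nucleus, had higher signals on slide 1 than on slide 2 within each of the 2 groups. NPY, which drives feeding, read 0.03, 1.44, -0.94 and -1.06 after occlusion and 2.45, 3.11, -0.26 and -0.09 after sham. AGRP, made in the same neurons, read -3.32, -1.45, -6.57 and -5.80 against -0.14, 0.92, -4.16 and -4.88. Estradiol replicates 1 and 2 were the highest of all 8. The differences were -1.44 ± 0.68 for NPY and -2.22 ± 1.01 for AGRP (adjusted p = 0.552 and 0.539, limma), and -0.19 and -0.27 without those 2 sham arrays, which leaves slide 1 with occluded arrays alone. On slide 2, with both groups present, they were -0.83 and -1.67. GHRH, which releases growth hormone, showed the same order of slides and differed by -1.83 ± 1.32. Its difference was -0.10 without them, but -1.61 on slide 1 and -2.04 on slide 2.

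TAC3, the neurokinin B precursor of kisspeptin neurons, read -2.66, -2.81, -3.52 and -2.43 in estradiol+BCO and -2.39, -0.19, -2.13 and -2.32 in estradiol. The groups did not overlap, but estradiol replicate 2 was far above the rest: the difference was -1.10 ± 0.40 with it and -0.60 without it. OXT, the oxytocin precursor, went the other way, with 2.78, 2.34, 3.07 and 3.49 against 0.55, 1.27, 1.61 and 1.70. All occluded fetuses were higher at both probes, which share 59 bases (1.64 ± 0.90, adjusted p = 0.611, limma). The error is pooled over all 4 groups, with values from -3.37 to 2.57 in those without estradiol. ADCYAP1, the precursor of the peptide PACAP, differed by -0.96 ± 0.46. Of 14 neuropeptides 5 were higher and 9 lower (median -0.11).

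The 10 pituitary markers tested split 4 higher and 6 lower. POMC and the receptors AVPR1B and CRHR1 are also members of the adrenal axis list, so the counts of these lists are not independent. CGA, the alpha subunit of the glycoprotein hormones, is a pituitary gene. It read -6.10, -5.14, -9.38 and -6.25 in estradiol+BCO and -0.84, 3.45, -5.22 and -5.20 in estradiol, with 3 of 4 and 4 of 4 arrays well above background. Estradiol replicates 1 and 2 were the highest of these 8 arrays. The difference was -4.76 ± 2.06 (adjusted p = 0.512, limma), -1.84 without those 2 arrays, -2.60 on slide 2 alone and -3.34 under normexp. FSHB differed by -2.17 ± 1.29, with 1 of 4 occluded arrays well above background, and by -0.68 under normexp. The summed signal of 10 pituitary markers was 5.47 to 8.21 in estradiol+BCO and 6.75 to 19.1 in estradiol, with estradiol replicate 2 highest. Its part in the values of POMC, PCSK1 and the adrenal axis list was not tested; without estradiol replicates 1 and 2 PCSK1 differed by -0.96, POMC by -0.18 and the list median was -0.27. On slide 2 alone these were -1.05, -0.74 and -0.45.

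**Figure D4:**
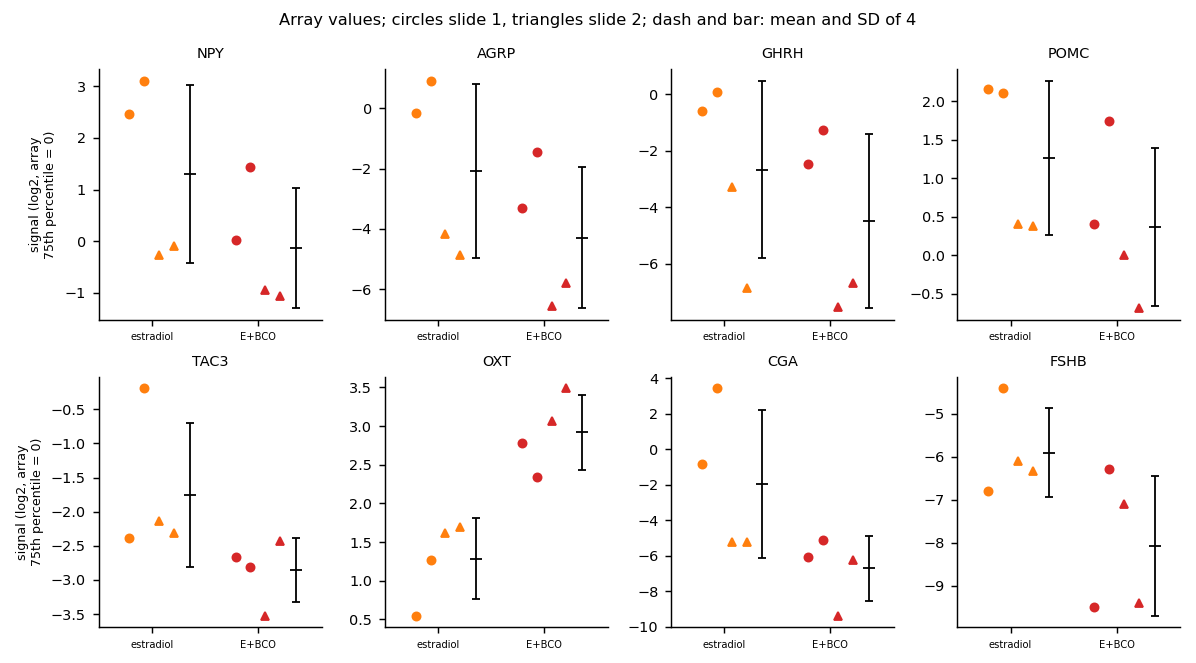
Signal (log2, 75th percentile of the array at 0) on each array of the estradiol and estradiol+BCO (written E+BCO) groups for 6 neuropeptide genes and the pituitary genes CGA and FSHB; circles are slide 1, triangles slide 2, and the dash with its bar is the mean ± SD of 4 arrays. Slide 1 lies above slide 2 in NPY, AGRP and GHRH in both groups, and the OXT groups do not overlap.

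Genes of the extracellular matrix also had lower means. COL1A2, a chain of type I collagen, read -4.29, -3.29, -4.09 and -3.94 after occlusion and -3.02, -2.73, -3.54 and -2.89 after sham. The ranges overlapped through a single pair, the difference was -0.86 ± 0.26 (adjusted p = 0.318, limma) and it was -0.56 without estradiol replicates 1 and 2 and -0.80 on slide 2 alone. TIMP3, an inhibitor of matrix proteases, differed by -0.37 ± 0.10. All 5 fibroblast markers were lower (median -0.53), and their summed signal was 3.08 to 6.85 in estradiol+BCO and 4.24 to 9.60 in estradiol. This median was -0.08 without estradiol replicates 1 and 2 and -0.22 on slide 2 alone. IGF2, which meninges and choroid plexus express strongly in the fetus, differed by -1.36, by -0.55 without them, and by -1.37 on slide 1 and -1.36 on slide 2.

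PTCH1, the hedgehog receptor, was lower in every occluded fetus at its brightest probe: -4.80, -4.42, -4.83 and -4.26 against -4.05, -3.50, -3.75 and -4.06. The margin between the groups was small (-0.74 ± 0.18, adjusted p = 0.230, limma), and the difference was -0.71 without the 2 sham arrays. Its probe is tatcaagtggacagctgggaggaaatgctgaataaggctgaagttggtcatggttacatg, from a partial coding sequence. Another PTCH1 probe, which shares 59 bases with this one, differed by -0.62 ± 0.21, and its groups overlapped. NTN4, a netrin, was lower without overlap at both probes (-0.69 ± 0.18). Of 10 hedgehog, Wnt, Notch and guidance genes 8 were lower (median -0.20). IGF1R, the receptor of insulin-like growth factor 1, was lower without overlap (-0.41 ± 0.15), but by -0.10 at a second probe, and FGFR1 differed by -0.50 ± 0.18.

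FTO, an RNA demethylase, had the lowest p of the named genes that were lower. It read -0.45, -0.50, -1.09 and -0.59 after occlusion and -0.25, 0.01, -0.08 and -0.30 after sham. The groups did not overlap (-0.50 ± 0.12, adjusted p = 0.208, limma), while the second probe differed by -0.31 with overlap. YEATS4, a chromatin reader, was lower without overlap (-0.40 ± 0.11), as was KIF5B, a kinesin motor (-0.46 ± 0.12). On the higher side without overlap stood DGAT1, which makes triglycerides (0.33 ± 0.10), PSMB7, a proteasome subunit (0.23 ± 0.08), SLC25A6, a mitochondrial ADP/ATP carrier (0.25 ± 0.09), and ATF4, a stress transcription factor (0.33 ± 0.12). SLC15A1, a peptide transporter, differed by 1.45 ± 0.38 but was well above background in 2 of 4 sham arrays, and its difference was -0.04 under normexp. Dim probes of RPS25 (1.01, and 0.04 under normexp), FGF18 (0.71 and 0.24) and CREM (0.43 and 0.16) were likewise smaller under normexp. The bright RPS25 probes differed by 0.04 and -0.06, and its other dim probe by 0.44. For CREM the brighter probe differed by 0.35.

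ESR1, the estrogen receptor alpha, read -0.80, -0.05, -1.52 and -0.79 in estradiol+BCO and -0.12, 0.11, -0.13 and -1.25 in estradiol, with overlap (-0.44 ± 0.41). The 8 genes of estrogen and sex steroid action were lower in 7 cases (median -0.26), with 0 at p under 0.05. The monoamine, melatonin and orexin list split 5 and 3 (median 0.05), prostaglandin synthases and receptors 1 and 6 (median -0.22), apoptosis regulators 7 and 2 (median 0.13), and chaperones 3 and 6 (median -0.13). Lipid and gluconeogenic genes split 6 and 9 (median -0.11), insulin-like growth factor genes 6 and 5 (median 0.03), and cell cycle genes 6 and 3 (median 0.04). Oxidative phosphorylation genes split 3 and 3 (median 0.06) and ribosomal proteins 3 and 7 (median -0.09), in each pair higher first. Against these, all 815 named genes split 395 higher and 420 lower with a median of -0.01. The 3 erythroid markers were higher (median 0.73), with summed signals of 3.35 to 23.9 and 3.40 to 18.1.

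The last question was whether occlusion acted differently with and without estradiol. At an unadjusted p under 0.05 the interaction differed from 0 at 1103 probes (8.71%), above it at 422 (3.33%) and below it at 681 (5.38%), and no named gene passed the adjusted threshold. AGGF1 came closest: it was higher by 0.44 in BCO than in control and lower by 0.29 in size under estradiol (interaction -0.74 ± 0.13, adjusted p = 0.0837, limma). Control arrays read 0.08, 0.12, 0.14 and -0.01, BCO arrays 0.56, 0.56, 0.38 and 0.61. Those groups were apart, as were the estradiol groups in the opposite order. FTO (-0.80 ± 0.17), PSIP1, a chromatin-bound coactivator (-0.89 ± 0.21), and the dimmer overlapping KDR pair (-1.09 and -1.14) had interactions of the same sign. PRNP, the prion protein, had -0.58 ± 0.11 at one dim probe, but its 4 probes disagreed in the estradiol comparison, at 0.26, 0.22, -0.17 and -0.20.

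Interactions above 0 were led by AREG, an epidermal growth factor receptor ligand. Its arrays read -1.99, -2.27, -2.53 and -1.49 in estradiol+BCO and -2.79, -2.43, -3.29 and -3.10 in estradiol, higher by 0.84 ± 0.29 with overlap. Without estradiol it was lower after occlusion (-1.11), and the interaction was 1.95 ± 0.41 (adjusted p = 0.130, limma). GAL, the galanin precursor, at the first of 2 probes that share 59 bases, differed by 0.18 with estradiol and by -2.76 without it (interaction 2.94 ± 0.70, adjusted p = 0.180, limma). GRP, a bombesin-like peptide, differed by 0.33 and -1.18, and HCRTR1, an orexin receptor, by 0.50 and -0.60. For OXT the interaction was 4.35 ± 1.28 (adjusted p = 0.311, limma). The 14 neuropeptides as a list had a median difference of -1.63 without estradiol and a median interaction of 1.37. Of them 6 had an interaction at unadjusted p under 0.05 (limma, 8.71% of all probes). These medians were -1.24 and 0.98 for 3 markers of hypothalamic nuclei, and -0.84 and 0.55 for 8 sex steroid genes. Over all probes tested they were 0.01 and -0.01. The cause was not tested.

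**Figure D5:**
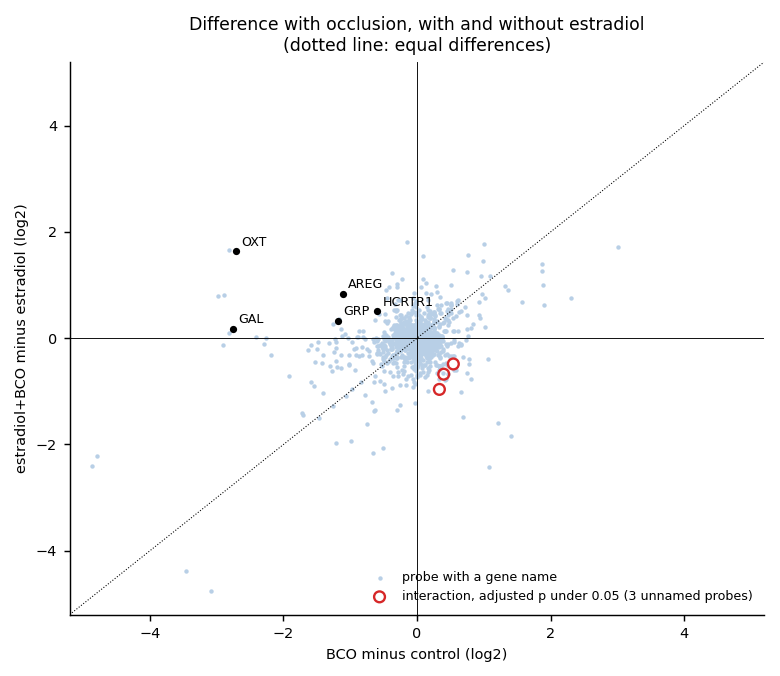
Difference after occlusion without estradiol (BCO minus control, x axis, log2) against that with estradiol (estradiol+BCO minus estradiol, y axis, log2) for named probes; red rings mark the 3 unnamed probes whose interaction passed an adjusted p of 0.05. These 3 lie right of 0 and below 0, and GAL, GRP, HCRTR1, AREG and OXT lie left of 0 and above 0.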

How the data were processed

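Per the labels' protocols, 500 ng of total RNA per array (RNA integrity number 7.4 to 8.4) received Cy3 and was run on a single-color Agilent sheep array. The authors read the arrays with Feature Extraction 10.1.1.1, per the file headers. The deposited scanner files give each spot's intensity (processed signal) in arbitrary units. The deposited value table holds log2 values, which were found to be the same signals on a log2 scale, centred on each array's median over every feature (column medians 0), and served as an alternative. The aligner, build and statistical test are not given in the sources used here.

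Signals were taken to log2, the array's 75th percentile over 15208 non-control spots (2024 to 2908 units, local background 56.5 to 65) was subtracted, outlier spots were set to missing and spots of one probe averaged. Probes that the scanner software called well above background on fewer than 4 of the 8 arrays compared were left out (2341). Of the tested probes 33 lacked a spot on any of the 8 arrays, which the fit leaves out, and 2 were saturated. The 16 arrays entered 1 linear model with group and slide (limma 3.58.1, R 4.3.3). Tests were 2-sided, with Benjamini-Hochberg adjustment over 12667 probes. The fit was tested on simulated data. Names (1550 of 15008 probes, 944 names) came from the files, matched to RefSeq gene names for assembly ARS-UI_Ramb_v3.0. For 13415 probes no name was found. A further 34 with an uninformative LOC name and 9 with conflicting names were also left unnamed. Genes are given by the brightest probe, in lists as well, unless stated.

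The genes named were the 15 with the lowest p in each direction, 5 in each direction of the interaction, up to 4 per list, and a panel. Some results are not reported here. Members and lists were chosen with earlier results of these data known. Same-numbered arrays share a slide, and their deviations from the group means correlated at 0.114 to 0.129. Within a slide the correlation was -0.111 and -0.226. Both replicates of a slide give the same value by construction, so whether same-numbered arrays pair beyond the slide is not settled. The replicate block is given where it changes a call.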

Additional observations from a re-analysis of the deposited data

Results flagged for a closer look

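In 174 groups of 4 arrays examined, 9 had an array far from the other 3. This is about the share that chance gives, 1 in 20. Estradiol+BCO replicate 1 stood out for MX2 (4.46, others -1.08 to -0.25) and ATF4 (0.94, others 0.40 to 0.47). Estradiol+BCO replicate 3 stood out for PCSK1 (-3.49, others -2.44 to -2.34) and SLCO2A1 (-1.85, others -2.14 to -2.10). Estradiol replicate 2 was high for TAC3 (-0.19, others -2.39 to -2.13) and COL3A1 (-3.57, others -4.32 to -4.25). Estradiol replicate 4 was apart for CD247 (-0.40, others -1.50 to -1.39), GJA1 (2.96, others 3.18 to 3.22) and STAR (-6.28, others -5.52 to -5.39).

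The effect of occlusion differed with and without estradiol, by a test of the interaction, at 3 unnamed probes: A_70_P055401 (-1.30), A_70_P036801 (-1.08) and A_70_P005946 (-1.03).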

How the results depend on the processing

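In all, 1212 gene values were recomputed with another scaling, background correction, filter, block or arrays of 1 slide, or without estradiol replicates 1 and 2. The direction was kept in 1205 of these, and in 1389 of 1392 recomputed without 1 array. Many of these values could hardly change direction. Each slide holds equal numbers of each group, so another block or filter leaves the difference nearly as it was. Leaving out a control or BCO array scarcely changes it either, since those groups are not part of it. The exceptions were CRHBP (0.011), GAL (-0.35) and CXCL8 (-0.070) on slide 1 alone, SLC15A1 under normexp (-0.035), and ISG15 (-0.53), MX1 (-0.68) and MX2 (-0.37) on slide 2 alone. Leaving out 1 array in turn gave -0.15 to 0.52 for GAL, -0.26 to 1.45 for MX1 and -0.084 to 1.69 for MX2.

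The 1 probe past the adjusted threshold became 0 on slide 1 alone, on slide 2 alone, in the fit of the 8 arrays alone, with the replicate block, and without estradiol replicates 1 and 2, and 0 to 3 without 1 array. The 3 without BCO replicate 2 or 3 and the 2 without estradiol+BCO replicate 3 were the only counts above 1. With the replicate block the interaction count stayed at 3 and 1120 probes had an unadjusted p under 0.05, and the block changed no other call. The 3 probes of the interaction became 1 without a slide term, 1 with slide as a random block, 1 under normexp, 0 on slide 1 alone, 0 on slide 2 alone and 0 without estradiol replicates 1 and 2, and 0 to 6 without 1 array (0 without control replicate 4 or estradiol+BCO replicate 3 or 4, and 6 without BCO replicate 1). The 1143 probes at an unadjusted p under 0.05 became 494 on slide 1 alone and 744 without estradiol replicates 1 and 2, and 826 to 1385 without 1 array. Higher probes made up 43.2% of the 1143, 52.1% of 1164 under median centring and 31.8% of 1130 under normexp. List medians were recomputed 744 times, and a median that crossed 0 could still count as unmoved. Some did. Leaving out 1 array in turn gave -0.42 to 0.066 for neuropeptides and -0.054 to 0.31 for innate immune genes. Under normexp the monoamine, melatonin and orexin median went from 0.050 to -0.10. Fits that could hardly change a gene value could hardly move a median either. In 740 cases the median moved by less than the spread between arrays. The others were immediate early genes with the mean of all probes (0.41), glutamate genes on slide 2 alone (-0.43) and without estradiol replicates 1 and 2 (-0.43), and fibroblast genes without those arrays (-0.081). The fit without those 2 arrays was chosen after seeing the data. The causes were not tested, beyond the smaller number of arrays. Signal over background limits dim probes. Normexp took FSHB from -2.17 to -0.68 and CGA from -4.76 to -3.34.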
